A study of Mus musculus with 6 samples.

Results

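The Kruppel-like factors examined here are 10 genes of 1 transcription factor family: Klf2, Klf3, Klf4, Klf6, Klf7, Klf9, Klf10, Klf11, Klf12 and Klf13. They were represented by every probe set, the group of short probes that reads 1 transcript, whose only gene symbol in the platform annotation was 1 of these names. This gave 36 of 45037 probe sets. Of the 36, 26 passed a filter on dim signals, at least 1 for each of the 10 genes, and the other 10 were too dim to be tested.

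The arrays carry RNA of double negative thymocytes, immature T cells with neither CD4 nor CD8 on their surface, purified on a flow cytometer. Each of 3 wild type mice gave 1 array, and each of 3 mice labelled Egr1/Egr3 double knockout gave 1 array, with 1 animal per array by the labels. Egr1 and Egr3 encode zinc finger factors induced by receptor signalling in thymocytes. The strain, age and sex of the mice, the construction of the 2 alleles and any agent given are not stated in the sources used here, and the titles name whole thymus where the descriptions name sorted cells. By the same titles, the mRNA was amplified. The p-values set the difference of the groups against the spread between arrays of the same group, moderated over all tested probe sets. Each of the 6 arrays is of 1 animal if the labels hold.

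Kruppel-like factors bind GC-rich and CACCC-type DNA with a set of zinc fingers at the carboxyl end that is nearly the same in the whole family, while the remainder of each protein sets what it does there. One branch mainly activates transcription (Klf2, Klf4, Klf6 and Klf7), another recruits the SIN3 corepressor (Klf9, Klf10, Klf11 and Klf13) and the remaining one recruits the corepressor CtBP (Klf3 and Klf12). In T cells the family is best known through Klf2, which keeps resting cells quiescent and controls the genes that let mature thymocytes leave the thymus.

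Promoter sequence was available for 9 of the 10 genes in a RefSeq table of the mouse build GRCm38.p6. Klf10, which also rose, had no entry there, so its promoter was not searched. The 250 bases before the annotated start are shown for Klf2, Klf4 and Klf9, which had probe sets that rose, and for Klf3, a gene without such a probe set whose promoter shares a motif with those of Klf2 and Klf4. Each runs 5′ to 3′ along the gene's own strand. Capitals mark EGR sites (GCGTGGGCG or GCGGGGGCG on either strand, the letters bound by EGR proteins), a MEF2 site (found by its consensus) and a FOXO site (GTAAACA).
Klf2 (chr8:72318812-72319061, plus strand): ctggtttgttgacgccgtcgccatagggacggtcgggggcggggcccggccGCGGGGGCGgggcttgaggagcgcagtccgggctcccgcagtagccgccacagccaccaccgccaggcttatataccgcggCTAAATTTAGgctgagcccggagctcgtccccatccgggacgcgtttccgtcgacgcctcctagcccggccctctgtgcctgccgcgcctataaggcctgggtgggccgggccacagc
Klf4 (chr4:55532476-55532725, minus strand): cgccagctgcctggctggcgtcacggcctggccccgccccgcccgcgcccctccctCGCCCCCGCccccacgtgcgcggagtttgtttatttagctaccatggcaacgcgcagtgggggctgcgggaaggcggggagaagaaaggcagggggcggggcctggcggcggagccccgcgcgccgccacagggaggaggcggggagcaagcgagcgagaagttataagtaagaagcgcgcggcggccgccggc
Klf9 (chr19:23140976-23141225, plus strand): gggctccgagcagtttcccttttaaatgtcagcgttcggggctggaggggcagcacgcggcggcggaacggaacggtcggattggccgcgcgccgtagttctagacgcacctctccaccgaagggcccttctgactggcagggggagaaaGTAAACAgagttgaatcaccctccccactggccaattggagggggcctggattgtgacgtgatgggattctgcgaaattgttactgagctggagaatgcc
Klf3 (chr5:64803271-64803520, plus strand): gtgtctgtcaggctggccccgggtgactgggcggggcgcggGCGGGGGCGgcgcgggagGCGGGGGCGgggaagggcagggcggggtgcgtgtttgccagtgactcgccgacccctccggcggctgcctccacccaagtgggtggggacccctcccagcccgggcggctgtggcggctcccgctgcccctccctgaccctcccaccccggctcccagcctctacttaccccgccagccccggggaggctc

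The EGR letters stood once before Klf2, at bases -199 to -191 from the start, once before Klf4, on the opposite strand at bases -194 to -186, and at 2 places before Klf3. The other 6 promoters held none. The letters occur in 3.06% of the 32851 promoters of the table, and in 17.8% of the 2571 promoters with at least 71.2% G and C, which is the composition of the Klf2 promoter. Klf2 was the 1 gene with a MEF2 match, at bases -118 to -109 (2.92% of all promoters have one). Klf9 was the 1 gene with a FOXO match, at bases -100 to -94 (3.17%). A GC box (GGGCGG), which overlaps some of the EGR matches, was present in 7 of the 9 promoters and in 32.7% of all. The CACCC box CCACACCC was present before Klf12 alone (3.2%). None of the 9 held the cyclic AMP response element TGACGTCA (1.55%), a CArG box (1.47%) or a glucocorticoid response element (0.00913%) in this window. The 9 promoters held between 48% and 78.4% G and C, against a median of 52.4% for all. These matches describe letters, and binding was not measured.

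**Figure D1:**
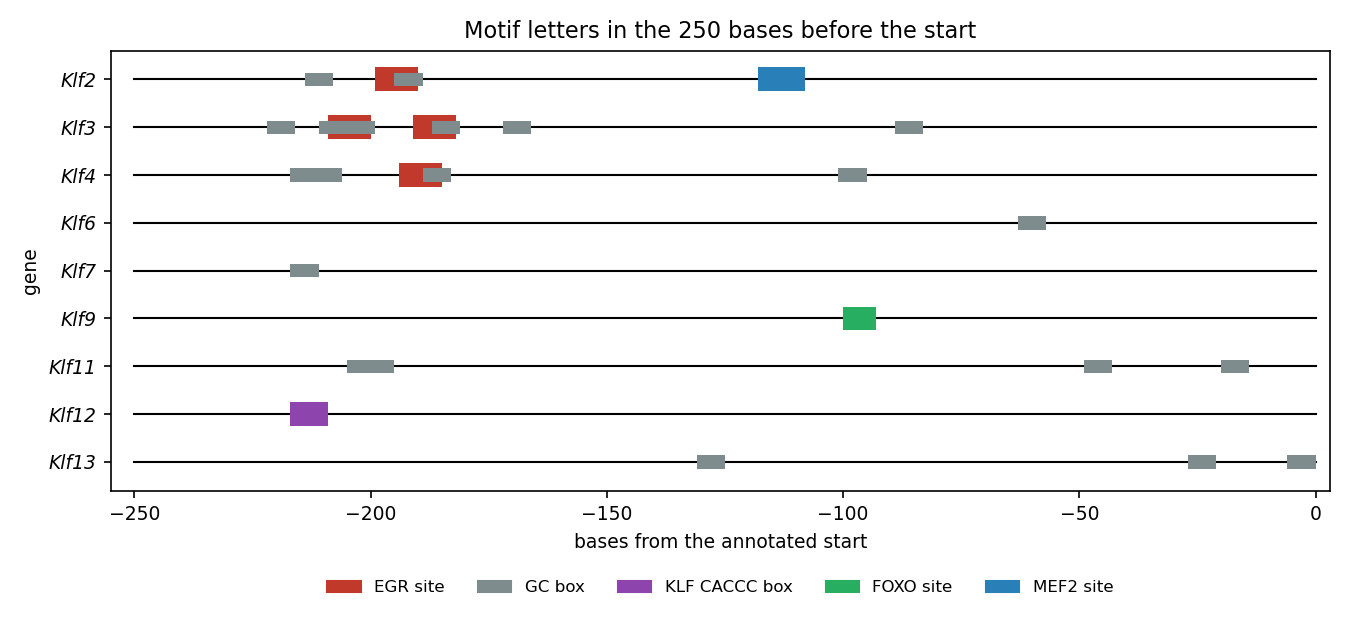
Position of motif letters in the 250 bases before the annotated start of 9 genes, with distance from the start in bases on the horizontal axis and 1 line per gene. The EGR letters of Klf2, Klf3 and Klf4 lie between 209 and 183 bases before the start, and the MEF2 and FOXO matches belong to Klf2 and Klf9.

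Before the members are described, the arrays themselves were checked. The median deposited intensity was between 19.9 and 23.1 on the 6 arrays, and the brightest of 27 probe sets for bacterial control genes read between 19.0 and 29.9, which marks the level of a probe set without a target. Egr1, a targeted gene, read 508, 509 and 455 in wild type cells and 1757, 1696 and 1221 in the others, so this gene was up rather than down under the knockout label (log2 change 1.60, SE 0.24, limma adjusted p = 0.00312). The brighter Egr3 probe set read 92.2, 83.1 and 30.8 against 34.4, 45.8 and 32.9, with a change of -0.59 (adjusted p = 0.368). Without wild type replicate 3 that change was -0.98 (limma adjusted p = 0.0278), and without any other single array it did not pass. The other tested Egr3 probe set, 1421486_at, read 34.2, 30.5 and 30.5 against 12.5, 32.1 and 55.4, with a change of -0.07 (adjusted p = 0.941). Where the alleles are disrupted, and whether these probes lie there, is not stated, so every direction below follows the labels, as double knockout minus wild type. Wild type replicate 3 stood apart in cell type genes. Summed over 9 neutrophil marker genes it read 361, against 11467 and 24834 on the other wild type arrays and 18476 to 27652 on the arrays labelled double knockout. Summed over 5 red cell markers it read 3915, against 117 to 487 on the other 5 arrays. The Y-linked gene Eif2s3y read 476 on wild type replicate 1, 13.2 and 0.625 on the other wild type arrays and 186 to 265 on the arrays labelled double knockout, while Xist was between 1439 and 6015 on all 6. The Y-linked Kdm5d and Uty read 144 and 63.7 on wild type replicate 1 and 10.3 to 29.5 and 11.4 to 23.4 on the arrays labelled double knockout. Xist and a Y-linked gene thus stood together on wild type replicate 1, and by Eif2s3y on the arrays labelled double knockout. Of the latter, Kdm5d exceeded the brightest control on replicate 2 alone (29.5 against 24.3), and Uty on none. The joint signal bears on whether an array stands for a single animal and so on what the p-values measure, and this was not tested. For the members and the called pathway genes, results are therefore also given without these arrays where that changes a call. The calls of cell type markers were not refitted with single arrays left out. Cd4 was under the brightest control on all 6 arrays (3.15 to 6.08), and all 10 double negative markers found were above it on at least 1 array.

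Klf2, Klf4, Klf9 and Klf10 rose in the arrays labelled double knockout, and no member fell. In bulk RNA, more cells of a type and more RNA per cell cannot be told apart. By probe set, 6 of the 26 tested rose (23.1%), where 2.91% of all 27022 tested probe sets did, and none fell (0 also at an unadjusted p of 0.05), where 2.11% of all did. By gene, 4 of the 10 rose on their brightest probe set, where 3.72% of 13187 genes did, and none fell, where 2.54% did. The members were chosen with earlier results of these data known, so these shares describe the 10 genes and do not test the family. The log2 change of the 26 had a median of 0.60, against 0.00 for all tested probe sets, and without the filter the 36 had a median of 0.30. The groups did not overlap in 11 of the 26 (42.3%), where 23.9% of all tested probe sets showed this. Without double knockout replicate 1, the probe set of Klf4 was the 1 that still rose, and without wild type replicate 1 or double knockout replicate 3, 4 did. The calls came from limma with the Benjamini-Hochberg adjustment over all 27022 probe sets at 0.05. All log2 changes are on the scale of intensity plus 16, which understates the change of dim genes.

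**Figure D2:**
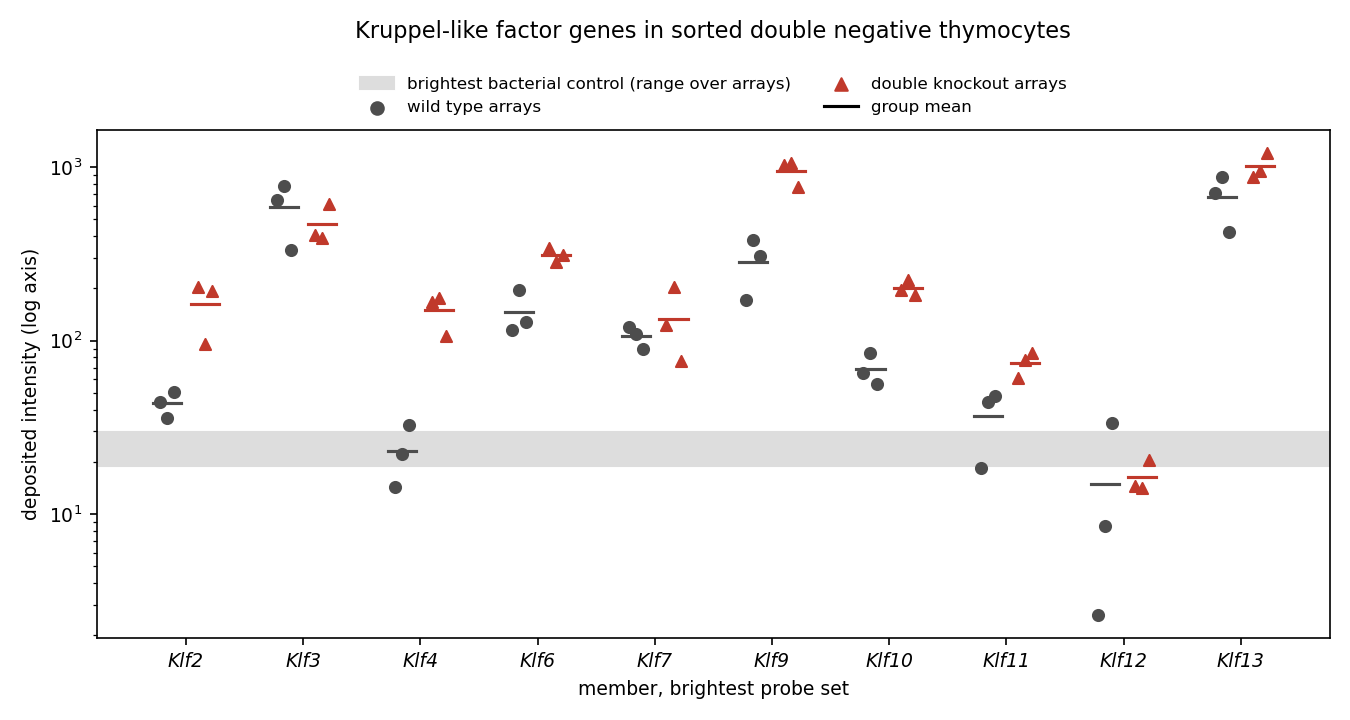
Deposited intensity (log axis) of the brightest probe set of each of the 10 genes on the 3 wild type arrays (circles) and the 3 arrays labelled double knockout (triangles), with the group means as lines and the range of the brightest bacterial control in grey. Klf2, Klf4, Klf6, Klf9, Klf10 and Klf11 have groups that do not overlap, and Klf12 lies at the level of the control on 5 of the 6 arrays.

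Among the activators, Klf4 had the largest change of the family. Klf4, known from stem cells, epithelia and monocytes and as a brake on T cell division, read 14.3, 22.2 and 32.5 in wild type cells and 167, 175 and 106 in cells labelled double knockout. All 3 of the latter were above all 3 wild type arrays, which lay at or near the brightest control. The mean went from 23.0 ± 9.16 to 149 ± 37.6 (SD, n = 3 each), a log2 change of 2.06 (SE 0.28, limma adjusted p = 0.00172). Klf4 was the only member called under all 15 alternative settings, with changes between 1.28 and 2.66. Its other probe set was too dim to be tested, at 1.38 to 1.99 in wild type cells and 21.4, 14.5 and 2.70 in the others.

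Markers of the cell types that also express Klf4 were read on the same arrays. Of 11 monocyte and dendritic cell markers tested, Cd14 rose, from 2.62, 30.6 and 14.8 to 72.5, 58.3 and 68.8 (log2 change 1.44, limma adjusted p = 0.0323), and none fell. The Cd14 call was lost without the intensity filter (limma adjusted p = 0.0824). Itgax had the opposite sign, at 55.7, 41.3 and 27.1 against 14.7, 9.30 and 19.4 (-0.91, adjusted p = 0.0988), and 2 of the 11 had an unadjusted p up to 0.05. The 12 markers on the array summed to 1099 to 3277 in wild type cells and 2144 to 2384 in the others, and 2 of them, 1 being the integrin gene Itgam, were at or below the brightest control on all 6 arrays. None of 9 tested endothelial and stromal markers passed (2 had an unadjusted limma p up to 0.05). All 12 of that list on the array summed to 493 to 2085 in wild type cells and 1171 to 3148 in the others. Of these sums, Epcam alone was 271 to 1784 in wild type cells and 865 to 2890 in the others.

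Klf2, the quiescence and egress factor, read 44.5, 35.9 and 50.8 in wild type cells. On the arrays labelled double knockout it read 202, 96.03 and 192. Replicate 2 of the latter group was the lowest of its 3, yet above every wild type array. The mean rose from 43.7 ± 7.46 to 164 ± 58.8 (SD, n = 3 each), a log2 change of 1.52 (SE 0.30, limma adjusted p = 0.0141). Klf2 has 1 probe set here. The change stayed between 1.32 and 1.85 when single arrays were left out, but the call was lost without wild type replicate 1 (adjusted p = 0.0518), wild type replicate 2 (0.0663), double knockout replicate 1 (0.0933) or double knockout replicate 3 (0.0623).

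Klf6, a widely expressed factor induced by injury and growth signals, did not pass the test, although its groups did not overlap on the brightest probe set. That probe set read 115, 197 and 127 in wild type cells and 340, 285 and 313 in the others. The log2 change was 1.03 (SE 0.27, 95% interval 0.43 to 1.63, limma adjusted p = 0.0528). It passed under 6 of the 15 alternatives, among them the values as deposited (adjusted p = 0.0358) and quantile normalization (0.043), and without wild type replicate 2 (0.0409). Of the other Klf6 probe sets, 1447448_s_at and 1459718_x_at, of kinds that can also read other sequences, had changes of 0.83 and 0.78. The remaining 2, both dim, had changes of 0.12 and 0.16, and none of the 4 passed.

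Klf7, expressed in neurons and also in blood cells, had no probe set that passed. Its brightest probe set read 120, 109 and 89.0 in wild type cells and 123, 203 and 76.1 in the others. These groups overlapped, and the change of 0.20 had a 95% interval from -0.47 to 0.87. The other 3 had changes between -0.61 and 0.00.

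Among the members that recruit SIN3, Klf9 had the most probe sets that rose. Klf9, a gene induced by glucocorticoids and thyroid hormone, read 171, 379 and 306 in wild type cells with its brightest probe set, 1456341_a_at, and 1024, 1062 and 763 in cells labelled double knockout. The lowest of the latter was 763, well above the highest wild type value of 379. The log2 change was 1.72 (SE 0.31, limma adjusted p = 0.00928). Probe set 1428289_at went from 164 ± 59.1 to 632 ± 150 (SD, n = 3 each), a change of 1.86 (adjusted p = 0.00705). Probe set 1428288_at went from 101 ± 54.6 to 293 ± 18.9, a change of 1.49 (adjusted p = 0.027). The first 2 calls were lost without double knockout replicate 1 (limma adjusted p = 0.0715 and 0.0569). The call of 1428288_at was lost without any single array other than wild type replicates 2 and 3 (adjusted p up to 0.125). The other 4 Klf9 probe sets were dim, and 1 of them, 1436763_a_at, was tested (0.69, adjusted p = 0.31). The arrays labelled double knockout thus had higher Klf9 signal on every probe set that was bright.

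**Figure D3:**
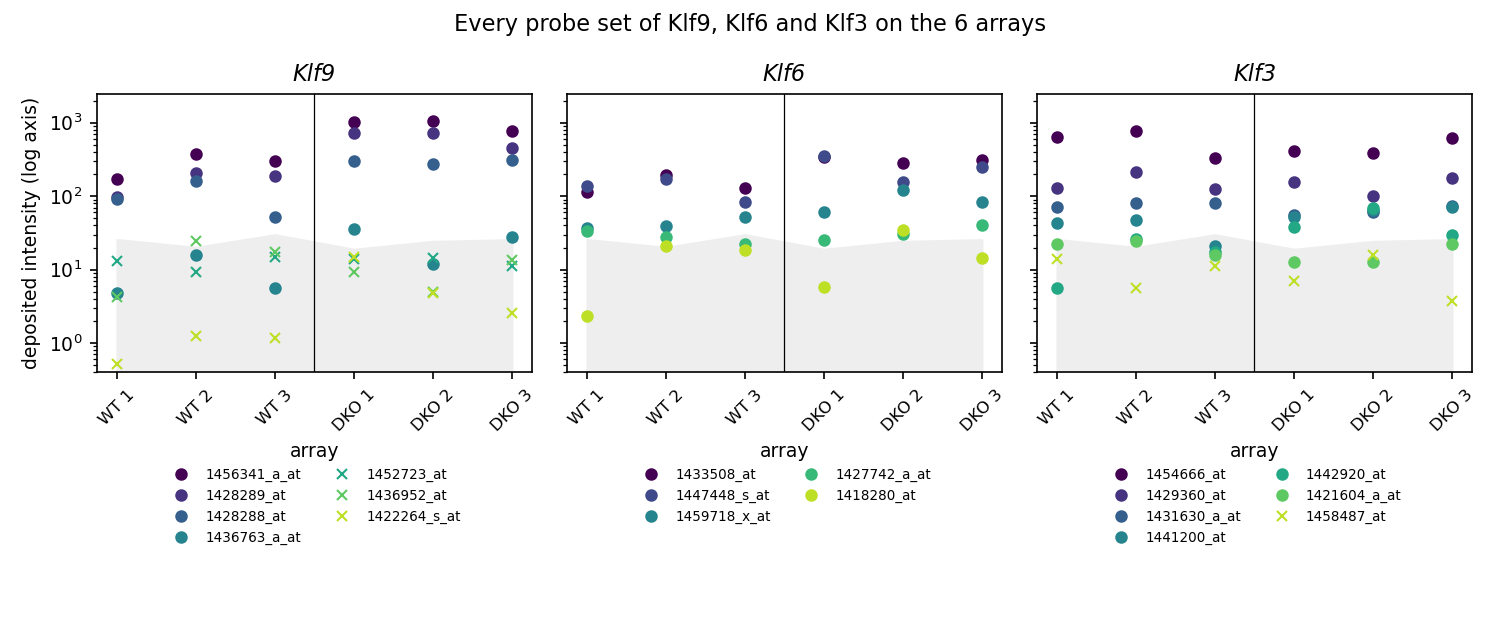
Deposited intensity (log axis) of every probe set of Klf9, Klf6 and Klf3 on each of the 6 arrays, with circles for tested and crosses for untested probe sets and the level of the brightest bacterial control shaded. The 3 bright Klf9 probe sets are higher on each array labelled double knockout than on any wild type array, while the 3 brightest Klf3 probe sets overlap between the groups.

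Klf10, the first TGF-beta-inducible early gene, read 65.1, 84.4 and 56.4 in wild type cells and 196, 224 and 184 in cells labelled double knockout. Each of the latter exceeded every wild type value, with little spread within either group. The mean rose from 68.6 ± 14.4 to 201 ± 20.7 (SD, n = 3 each), a log2 change of 1.35 (SE 0.25, limma adjusted p = 0.00911). The call was lost without double knockout replicate 1 (adjusted p = 0.0633). Klf11, the second TGF-beta-inducible early gene and the closest relative of Klf10, read 18.3, 44.1 and 47.9 against 61.3, 77.3 and 85.0. Its groups did not overlap either, but the change of 0.80 (SE 0.29, 95% interval 0.17 to 1.44) did not pass (adjusted p = 0.153).

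Klf13, an activator of the chemokine gene Ccl5 in T cells, was bright on all arrays and did not pass. Its brightest probe set read 707, 879 and 423 in wild type cells and 873, 952 and 1206 in the others. The lowest value of the second group was just under the highest of the first. The change was 0.61 (95% interval -0.04 to 1.26, limma adjusted p = 0.300), and 0.48 on the second probe set.

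The members that recruit CtBP were the branch without a call, but they are 2 genes. Of all 13187 genes 3.72% rose and 2.54% fell, so no call among 2 says little about the branch. Klf3, a repressor also known as basic Kruppel-like factor, read 647, 775 and 334 in wild type cells and 409, 393 and 611 in the others, so the groups overlapped. The change was -0.27 (SE 0.33, 95% interval -0.997 to 0.46, limma adjusted p = 0.731). Its 6 tested probe sets disagreed in sign. The 2 others of the 3 brightest had changes of -0.10 and -0.25, whereas 1441200_at and 1442920_at, both dimmer, had groups that did not overlap and changes of 0.58 (adjusted p = 0.293) and 0.90 (adjusted p = 0.164). Klf12, a repressor of the AP-2 alpha gene, was at the level of the controls. Its 1 tested probe set read 2.63, 8.59 and 33.4 against 14.6, 14.2 and 20.4, with a change of 0.17 (95% interval -0.63 to 0.98).

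**Figure D4:**
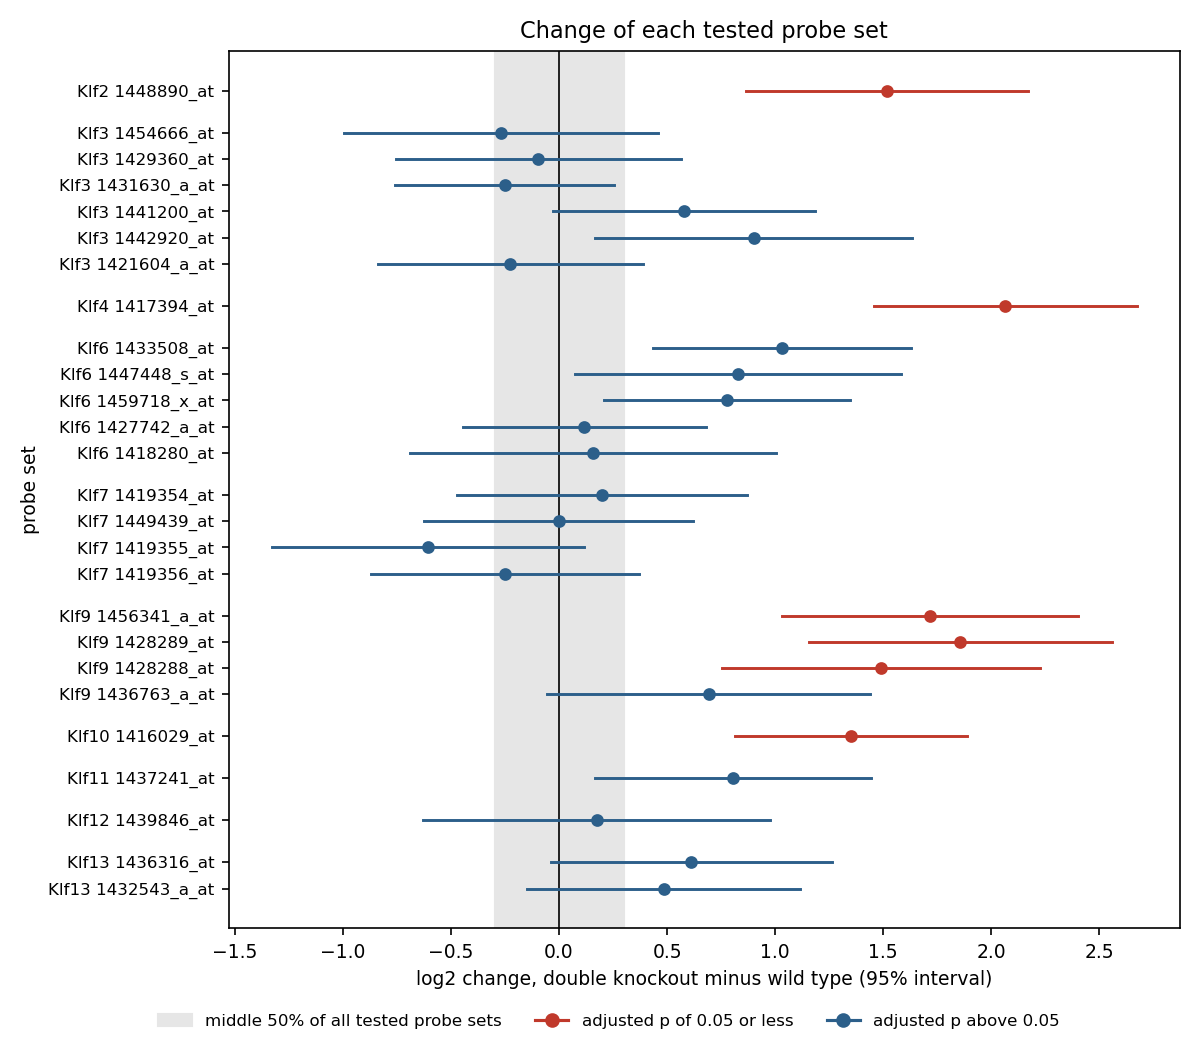
Log2 change with its 95% interval for each of the 26 tested probe sets, grouped by gene, with probe sets past the adjusted p threshold in red and the middle 50% of all 27022 tested probe sets in grey. The 6 probe sets in red, of Klf2, Klf4, Klf9 and Klf10, have changes between 1.35 and 2.06.

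The size of the change had the order Klf4 (2.06), Klf9 (1.72), Klf2 (1.52), Klf10 (1.35), Klf6 (1.03), Klf11 (0.80), Klf13 (0.61), Klf7 (0.20), Klf12 (0.17) and Klf3 (-0.27) on the brightest probe sets. The 95% intervals of all neighbours in this order overlapped, and the differences between members were not tested. Of the activators 2 of 4 rose, of the SIN3-binding members 2 of 4 and of the CtBP-binding members 0 of 2, where 3.72% of all genes rose. Counts this small do not tell the branches apart.

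Double knockout replicate 3 had the lowest reading of its group for Klf4, Klf10 and the 2 brightest Klf9 probe sets, and replicate 2 had the lowest for Klf2 and the other Klf9 probe set that rose. The genes whose log2 values over the 6 arrays lay nearest to those of each risen member, each taken relative to its own mean, were found among 13186 others by the root mean square difference. They were picked for their likeness and carry no test. For Klf2 they were Slc7a11, the cystine transporter (difference 0.17 on the log2 scale), Vps37b, an endosomal sorting subunit (0.19), and Usf2, a helix-loop-helix factor (0.20). For Klf4 they were the tetraspanin gene Cd53 (0.13), Crybg1 (0.14) and Acoxl (0.15). For Klf9 they were Cerk, the ceramide kinase (0.07), the kinase gene Matk (0.15) and Tes, a focal adhesion gene (0.17). For Klf10 they were Tcstv3 (0.09), the actin regulator Evl (0.09) and Mxd4, a partner of MAX (0.10).

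No call was made in the rest of the family. Of 6 other Kruppel-like factor genes found on the array, 4 were bright enough to test and none passed with limma (0 at an unadjusted p of 0.05, median change -0.20, against -0.01 for all 13187 genes). They were Klf16 (-0.48, limma adjusted p = 0.31), Klf17 (-0.46, below the brightest control on all arrays), Klf5 (0.13) and Klf1, the erythroid factor (0.07). None of 5 tested Sp factors, the close relatives that bind the same GC boxes, passed either (1 at an unadjusted p of 0.05, median -0.06). Sp3 had a change of 0.83 (adjusted p = 0.251) and Sp1 of -0.15. Of 13 tested cofactors and degradation genes of the family, Hdac2, a deacetylase in SIN3 complexes, fell by 0.89 (SE 0.21, adjusted p = 0.0334) on its brightest probe set and had a change of -0.52 on another (adjusted p = 0.297). The call was lost without any single array other than wild type replicate 3 (adjusted p up to 0.195). It was also lost without the intensity trend in the variance moderation, and with the replicate number as a block. The other 12 did not pass, among them the SIN3 genes Sin3a (0.07) and Sin3b (0.25), the CtBP genes Ctbp1 (-0.42) and Ctbp2 (0.15) and Wwp1, a ubiquitin ligase of Klf2 (0.35).

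Among signals known to act on these genes, the kinases, MEF2 and FOXO factors upstream of Klf2 had no call on the brightest probe set of each gene, but Foxo1 rose on a dimmer one. None of 8 genes passed with limma on the brightest (0 at an unadjusted p of 0.05, median -0.05), with Foxo1 at 0.40 (adjusted p = 0.47), Foxo4 at 0.57 and Mef2d at 0.28. Foxo1, a factor that drives Klf2 transcription in T cells, read 42.6, 45.4 and 35.1 in wild type cells and 129, 139 and 117 in the others on probe set 1416981_at. These groups did not overlap, and the change was 1.32 (SE 0.23, limma adjusted p = 0.0073), lost without double knockout replicate 1 (adjusted p = 0.0562). A further Foxo1 probe set had a change of 0.17, so the probe sets of this gene disagreed. Of 6 genes of TGF-beta signalling, Tgfbr2, a receptor chain, rose from 489 ± 130 to 1244 ± 138 (SD, n = 3 each), a log2 change of 1.33 (SE 0.26, limma adjusted p = 0.0152), and none fell (median 0.42). The inhibitor Smad7, which Klf10 is known to repress, had a change of 0.75 (adjusted p = 0.0956), and Tgfbr1, the other receptor chain, of -0.72 (adjusted p = 0.101). The Tgfbr2 call was lost without wild type replicate 1 or double knockout replicate 1 or 3 (adjusted p up to 0.117), and with the replicate number as a block.

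Glucocorticoid-induced genes were set beside Klf9 and Klf13, which the hormone is also known to induce. Of 4 tested, 2 rose and none fell (median 1.37). Per1, a clock gene, read 59.3, 79.5 and 173 in wild type cells and 478, 883 and 297 in the others (2.21, SE 0.41, limma adjusted p = 0.00986). Tsc22d3 rose by 3.13 (SE 0.62, adjusted p = 0.0145) on its brightest probe set and by 2.23 on another, while the remaining 2 had changes of -0.38 and -0.13 and did not pass. The receptor gene Nr3c1 had a change of 0.54 (adjusted p = 0.327) and Fkbp5 of 0.36 (adjusted p = 0.352). The Per1 call was lost without wild type replicate 2 or double knockout replicate 1 (adjusted p up to 0.0596), and the brightest Tsc22d3 call without either of these or double knockout replicate 2 (adjusted p up to 0.0748).

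Genes known to respond to these factors had calls in both directions. Of 10 tested, 2 rose and 1 fell on the brightest probe set (median 0.45). Myc, the growth regulator that Klf2 restrains in resting T cells, read 1100, 1121 and 808 in wild type cells and 278, 230 and 299 in the others. It fell by 1.86 on the log2 scale (SE 0.25, limma adjusted p = 0.00179), and passed without each of the 6 arrays in turn. Itgb7, an integrin chain gene lowered in T cells that lack Klf2, rose by 1.18 (SE 0.25, adjusted p = 0.0193). The chemokine receptor gene Cxcr3, which T cells lacking Klf2 express more of, rose by 1.396 (SE 0.29, adjusted p = 0.0185). Both of these calls were lost without wild type replicate 1, double knockout replicate 1 or double knockout replicate 3, and the Itgb7 call also without double knockout replicate 2 (adjusted p up to 0.145). With the replicate number as a block, both were lost too. Eng, a TGF-beta co-receptor gene that KLF6 activates, had a change of 0.08 on its brightest probe set, but rose by 1.32 (SE 0.28, adjusted p = 0.0217) on the dimmer 1432176_a_at. That call was lost without the intensity filter (adjusted p = 0.0634) and without any single array other than wild type replicate 3 (adjusted p up to 0.1002). S1pr1, the egress receptor under Klf2 control, was at or below the brightest control on all 6 arrays (4.50 to 20.7) and was not tested. Lgals3, a gene repressed by Klf3, had a change of 1.68 (adjusted p = 0.0767), the p21 gene Cdkn1a of -1.04 (adjusted p = 0.0541) and Ccl5 of 0.85 (adjusted p = 0.200).

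**Figure D5:**
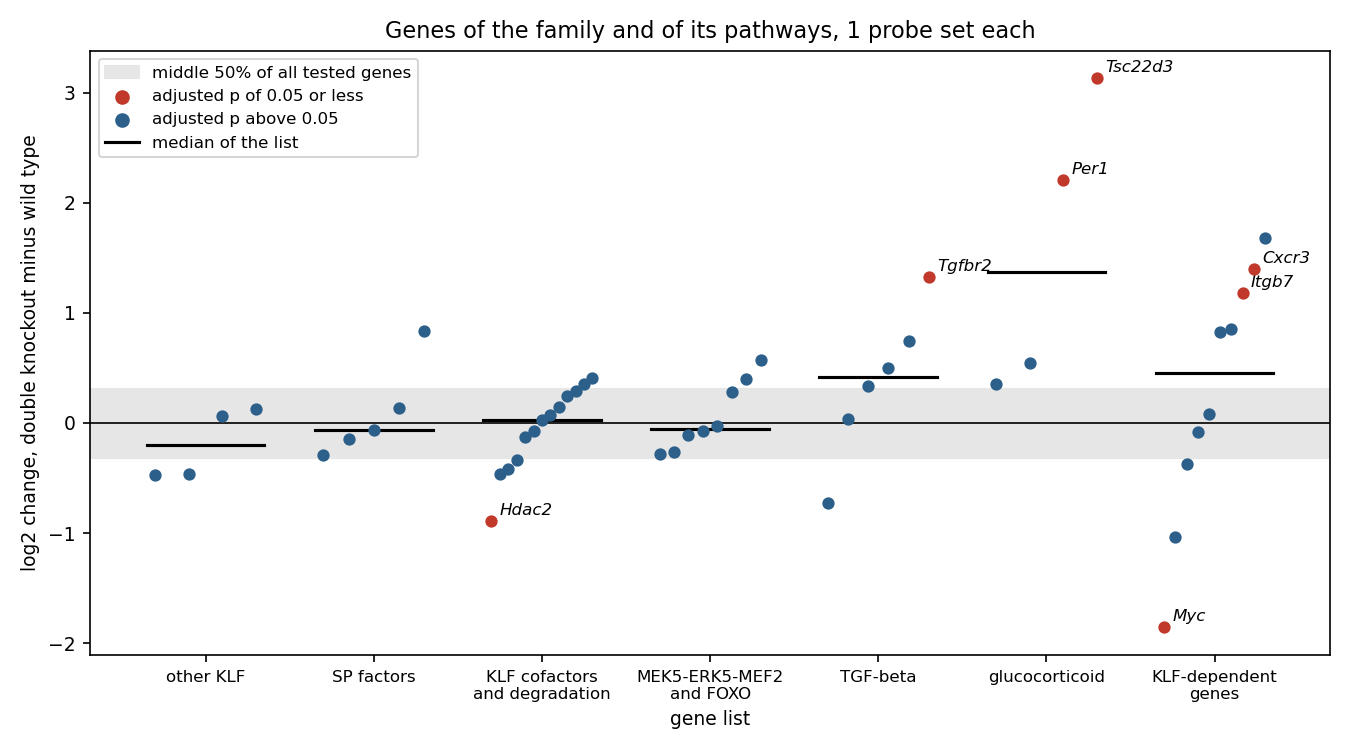
Log2 change of each tested gene (1 probe set each) in 7 lists of family, cofactor, upstream and responding genes, with the list median as a line, genes past the adjusted p threshold in red and the middle 50% of all tested genes in grey. Genes past the threshold are few, with Tsc22d3 (3.13) the highest and Myc (-1.86) the lowest.

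Markers of the sorted cells and of other cells were read beside the members. Of 4 tested natural killer and cytotoxic markers, 3 rose: Nkg7, Klrd1 and Gzmb. The 5 markers on the array summed to 436 to 656 in wild type cells and 2211 to 3841 on the arrays labelled double knockout, and Ncr1 was at or below the brightest control on all 6. Of 10 double negative markers, Ptcra, Il2ra and Dntt fell and none rose. The sum of the 10 was 27943 to 33100 in wild type cells and 16688 to 17932 in the others. The Dntt call was lost without the intensity filter (limma adjusted p = 0.124). Of 6 markers of double positive and mature T cells none passed with limma on the brightest probe set (1 at an unadjusted p of 0.05), Trat1 fell on another (-1.36, adjusted p = 0.0221), and the sums overlapped (3415 to 6277 and 3204 to 5113). Of 6 B cell markers, Cd79b rose and none fell, and the 7 on the array summed to 1015 to 2003 and to 2334 to 2871. The Cd79b call was also lost without the filter (limma adjusted p = 0.0558). Without Cd79b the sums of the other 6 overlapped (444 to 921 and 518 to 949), and Cd79a and Ms4a1 had changes of -0.60 and -0.15. None of 9 neutrophil markers passed (2 at an unadjusted p of 0.05), although their median change was 1.63, and none of 4 red cell markers passed (0 at an unadjusted p of 0.05). The part of these cell types in the changes of Klf2, Klf4, Klf9 and Klf10 was not tested.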

How the data were processed

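The deposited table holds linear intensities, 1 per probe set and array. In the authors' deposited intensity values the mean of the middle 96% was 150 on each array, so the arrays were scaled to a common level. The scanner, the probe summary and any batch are not named in the labels or headers. Of 45101 probe sets, 64 controls were left out. Of the other 45037, 34945 have 1 gene symbol in the platform annotation, 932 have several and 9160 have none here. Names were updated through RefSeq (GRCm38.p6), where 34741 matched.

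The log2 of intensity plus 16 was taken, and array medians were set equal. Testing was restricted to the 27022 probe sets whose mean reached the 40th percentile (intensity 13.2). Linear models were fitted in R 4.3.3 using limma 3.58.1, with trended empirical Bayes moderation and Benjamini-Hochberg adjustment over all of them at 0.05. SE is moderated. Changes of untested probe sets come from a fit without the filter. A gene outside the family is its brightest probe set with 1 symbol, by the same adjusted p (13187 genes). Named genes are every member, the called genes of each pathway list and up to 3 others of smallest p, and the 3 genes nearest each called member. A few others were named after their values were seen: Klf1, Sp1, Sin3a, Sin3b, Ctbp2, Wwp1, S1pr1, Eng, Foxo1 on its dimmer probe set and the markers. The members and lists were chosen with earlier results of these data known. The test was tested on simulated data. Motifs were searched with Python 3.11.15. The alternatives were other scalings, offsets, filters and variance models, array weights, a replicate block and each array left out. With 3 arrays a group, their number limits the precision.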

Additional observations from a re-analysis of the deposited data

How the results depend on the processing

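The count of Kruppel-like factor probe sets that rose, 6 in the main analysis, was between 5 and 7 under the 9 alternatives that kept all arrays, and none fell under any of the 15. Leaving out 1 array gave between 1 and 6 such probe sets, of between 1 and 4 genes. Without double knockout replicate 1 the 1 left was that of Klf4, and 1.39% of all tested probe sets were then called in either direction. The count over all probe sets, 1358 in the main analysis, was 3417 with array weights, and between 376 (without double knockout replicate 1) and 2744 (without wild type replicate 3) with 1 array left out. No reported Kruppel-like factor call changed sign under an alternative. Same-numbered arrays of the 2 groups did not deviate together (correlations of -0.05, -0.13 and -0.29). Arrays of unlike number had correlations between -0.19 and 0.25. Deviations from a mean of 3 arrays depend on one another, so this cannot exclude a pairing. With the replicate number as a block, 573 probe sets were called, and 5 of the family (4 genes), 1428288_at of Klf9 being the 1 not called. In signal over background, the wild type level of Klf4 and nearly all levels of Klf12 are limited, since they lie near the bacterial controls.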
